A study of Mus musculus with 2 samples.

Results

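The mitochondrial ribosomal proteins are described here as the protein-coding genes of the GENCODE M21 annotation whose symbol begins with Mrpl or Mrps and a number. The rule found 83 genes, of which 5 were processed pseudogenes, and left 78 members among 55536 annotated genes, 22015 of them nuclear and protein-coding. By textbook assignment, 51 members belong to the large subunit and 26 to the small subunit of the mitochondrial ribosome, and Mrps36 is a component of the 2-oxoglutarate dehydrogenase complex despite its name. Mrps30 and Mrps18a carry a small-subunit name and sit in the large subunit. The members lie on 17 chromosomes, with 11 on chromosome 11, 8 on chromosome 17 and 7 on chromosome 6.

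The series measured total RNA of the left cerebral cortex in 2 libraries, replicates 1 and 2 of a single group. The animals were male B6CASTF1/J mice, first-generation hybrids of a B6 and a CAST parent, aged 18 to 20 months; each library was made from 300 ng of RNA with ERCC spike-in transcripts. No allele, agent or other condition was compared, so the only contrast was between the libraries. The labels do not say whether the replicates came from separate animals, so the spread between them may be technical.

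The mitochondrial ribosome translates the few messenger RNAs encoded by mitochondrial DNA, all of which specify subunits of the oxidative phosphorylation complexes. Its ribosomal RNAs are mitochondrially encoded, while its proteins are made in the cytosol from nuclear genes and imported. Many of the proteins have a bacterial counterpart and the others are particular to mitochondria. Neurons depend heavily on oxidative phosphorylation, and inherited defects in several members cause mitochondrial disease in humans.

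RefSeq promoter windows on GRCm38.p6, from 250 bases before to 50 bases after a gene start, were matched by symbol or Ensembl identifier for 69 of the 78 members. 3 short motifs of factors known to act on nuclear genes for mitochondrial proteins, and the TATA box, were searched on both strands. CCGGAAG, the core bound by ETS factors such as GABPA, was present in 26 of 69 members (37.7%), against 12.9% of 17491 protein-coding genes with a window. Among the 10192 of them at a mean of 1 TPM (a level scaled for transcript length and library) or more here, the share was 19.2%. AAGATGGC, the core of YY1 sites, was present in 12 members (17.4%), against 3.57% of all and 5.14% of expressed genes. CGCATGCG, the core of NRF1 sites, was present in 7 members (10.1%), against 2.77% and 4.27%. TATAAA was present in 5 members (7.25%), against 14.8% and 8.51%. These 5 matches lay 68 to 190 bases before the start, that of Mrps24 on the other strand, so the letters alone do not make them TATA boxes. At least 1 of the first 3 motifs was found in 38 members (55.1%), 17.8% of all genes and 26.2% of expressed genes. A match describes letters in a window and is no measured binding site. The median GC content of the members' windows was 58.7%, beside 56.3% in all protein-coding genes and 61% in expressed genes.

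4 members with 2 matches each in the printed stretch are shown because they show how the motifs combine. The stretch runs from 120 bases before to 30 bases after the gene start, 5′ to 3′ on the gene's strand. Capitals mark the matched motifs. Mrps18a, at chr17:46110884-46111033 (+ strand), held the ETS core before the start and the YY1 core after it. Mrpl22, at chr11:58171544-58171693 (+ strand), held the ETS and NRF1 cores. Mrpl58, at chr11:115403632-115403781 (+ strand), held the ETS core in 2 places, and Mrpl32, at chr13:14613008-14613157 (- strand), the NRF1 core in 2 places. The window of Mrpl32 also held the YY1 core, 242 bases before the start and outside the printed stretch.
Mrps18a: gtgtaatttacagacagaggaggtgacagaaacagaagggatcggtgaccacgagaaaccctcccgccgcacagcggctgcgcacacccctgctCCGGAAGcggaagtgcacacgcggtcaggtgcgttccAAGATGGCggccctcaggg
Mrpl22: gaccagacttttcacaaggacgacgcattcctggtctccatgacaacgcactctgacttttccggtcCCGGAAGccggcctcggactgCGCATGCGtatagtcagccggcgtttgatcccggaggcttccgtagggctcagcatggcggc
Mrpl58: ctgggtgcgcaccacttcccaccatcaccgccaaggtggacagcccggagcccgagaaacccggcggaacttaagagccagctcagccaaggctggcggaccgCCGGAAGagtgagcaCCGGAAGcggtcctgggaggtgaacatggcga
Mrpl32: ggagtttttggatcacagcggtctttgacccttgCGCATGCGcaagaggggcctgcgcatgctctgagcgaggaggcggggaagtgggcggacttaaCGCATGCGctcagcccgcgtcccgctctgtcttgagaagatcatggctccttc

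The YY1 core lay between 12 and 37 bases after the start in 8 of the 12 members that held it. It had the same orientation as the gene in all 8 (Mrps18a, Mrps27, Mrpl49, Mrps7, Mrpl35, Mrpl37, Mrpl42 and Mrps24). The motif contains the letters ATG, and whether these matches cover a start codon was not tested. The mRNAs of the factors were present at modest levels. Gabpa was at 11.0 and 10.1 TPM in replicates 1 and 2, Nrf1 at 10.1 and 8.87 TPM (called lower in replicate 2, log2 ratio -0.26), and Yy1 at 22.9 and 20.9 TPM.

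Gene starts on the opposite strand lay close to many members. Starts before and after the member's own start were counted, so the counts are not of bidirectional promoters alone. A start on the other strand was annotated within 1000 bases of the start of 37 of 78 members (47.4%), against 25.5% of 13137 nuclear protein-coding genes at 1 TPM or more. Of the neighbours, 33 were protein-coding, and 27 of these had a mean TPM of 1 or more. In 25 of the 37 the starts were within 200 bases. Mrpl46 and Mrps11, a large- and a small-subunit gene, overlap head to head on chromosome 7 in GENCODE M21, with starts 412 bases apart. The RefSeq starts behind the promoter windows do not give this overlap. Several neighbours also serve mitochondria: Mrps12, encoding the decoding-site protein of the small subunit, starts 172 bases from Sars2, the mitochondrial seryl-tRNA synthetase. Mrpl36 overlaps at its start with Ndufs6, a complex I subunit, and the starts are 29 bases apart. Mrps27, which carries pentatricopeptide repeats, starts 81 bases from Ptcd2, another protein of that family. Others have roles elsewhere, as with Mrpl49 and Fau (59 bases), whose product contains a cytosolic ribosomal protein, and Mrpl32 and Psma2 (75 bases), a proteasome subunit.

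Levels were read as deposited TPM, which scales for transcript length and allows members to be set beside each other. The members rested on 27544 counts in replicate 1 and 37875 in replicate 2, with medians of 307 and 444.5 per member and ranges of 65 to 1018 and 70 to 1245. All 78 members were at 1 TPM or more in both libraries. Their median was 23.5 TPM in replicate 1 and 22.9 TPM in replicate 2, beside 16.3 and 14.9 TPM for nuclear protein-coding genes at 1 TPM or more. The members held 0.392% of nuclear protein-coding TPM in replicate 1 and 0.418% in replicate 2. 57 members lay above the median nuclear protein-coding gene. The mean levels spanned 3.04 to 66.8 TPM, but 69 members lay between 10 and 40 TPM, and the quartiles, 15.2 and 29.1 TPM, differed 1.92-fold, against 5.78-fold in nuclear protein-coding genes. In bulk tissue, fewer cells of a type and less RNA per cell cannot be told apart.

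**Figure D1:**
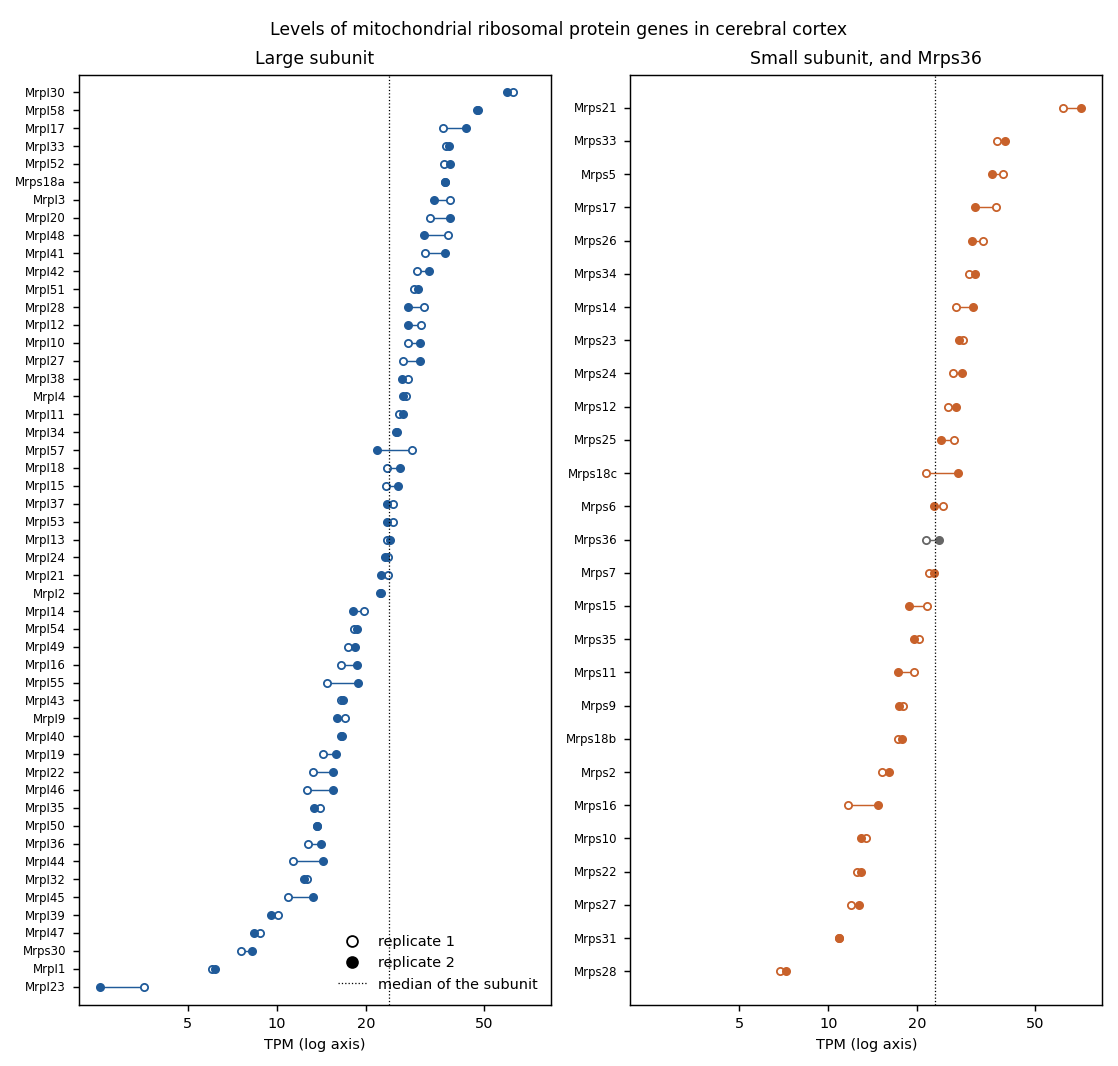
TPM of each member in replicate 1 (open circles) and replicate 2 (filled circles) on a log axis, with large-subunit genes on the left and small-subunit genes and Mrps36 on the right, ordered by mean. Dotted lines mark the subunit medians of 23.8 and 22.9 TPM, and Mrpl23 and Mrps21 are the lowest and highest members.

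The subunits were at nearly equal levels. The median of the 51 large-subunit genes was 23.6 and 23.1 TPM in replicates 1 and 2, and that of the 26 small-subunit genes was 21.7 and 22.8 TPM. The ratio of the medians of the means was 1.04, and it was 1.09 and 1.02 in the single replicates. In the second quantification it was 0.983. Origin made little difference as well. Large-subunit genes with a bacterial counterpart (30) had a median mean level of 23.6 TPM, and those particular to mitochondria (21) 24.1 TPM. In the small subunit the medians were 22.9 TPM for 16 genes and 22.5 TPM for 10 genes. The 12 members on a list of genes with known human disease alleles had a median of 23.8 TPM.

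Within the large subunit, Mrpl30 was highest at 62.8 and 59.9 TPM. Mrpl30 (chr1:37890477-37898535) encodes the counterpart of bacterial protein L30. Mrpl58, the former peptidyl-tRNA hydrolase ICT1 that became part of the ribosome, followed at 47.5 and 47.6 TPM. Mrpl17 was at 36.4 and 43.5 TPM, Mrpl33 at 37.2 and 38.1 TPM and Mrpl52 at 36.6 and 38.4 TPM. Mrps18a was at 36.9 TPM in both. At the lower end, Mrpl1 was at 6.04 and 6.18 TPM and Mrps30 at 7.55 and 8.22 TPM. Mrpl47, Mrpl39 and Mrpl45 followed, with means of 8.57, 9.81 and 12.04 TPM. Mrpl23 was listed lowest of all, at 3.55 and 2.53 TPM, a value taken up below with its pseudogene.

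Within the small subunit, Mrps21 was highest at 62.3 and 71.3 TPM. Mrps21 (chr3:95862634-95871519) encodes the counterpart of bacterial protein S21. Mrps33 was at 37.0 and 39.6 TPM and Mrps5, a core protein of the subunit, at 38.9 and 35.8 TPM. Mrps17, Mrps26 and Mrps34 followed with means of 34.1, 32.0 and 30.6 TPM. Mrps28 was lowest, at 6.89 and 7.20 TPM, in both replicates followed by Mrps31, at 10.9 TPM in both. Mrps27, Mrps22, Mrps10 and Mrps16 had means between 12.3 and 13.2 TPM.

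A pair of members was called different where the deposited TPM interval of one lay above that of the other in replicate 1 and again in replicate 2; the files do not state the level of those intervals. Of 3003 pairs, 1905 (63.4%) were called different, and the share over pairs of other genes was not computed. Neighbours in the order of levels are close by construction, and 1 of their 77 pairs was called different. Mrps21 and Mrpl30, the top pair, were not called different. The 3 paralogs of bacterial protein S18 differed in part. Mrps18a was above both Mrps18b, at 17.2 and 17.8 TPM, and Mrps18c, at 21.4 and 27.4 TPM, while Mrps18b and Mrps18c were not called different. Mrpl12, which also binds the mitochondrial RNA polymerase, was at 30.7 and 27.7 TPM, and Mrps12 at 25.3 and 27.0 TPM. Mrpl11 was at 25.9 and 26.6 TPM and Mrps36 at 21.3 and 23.6 TPM.

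Short transcripts had higher TPM among the members. Their median length was 1096 bases, beside 2524 in nuclear protein-coding genes at 1 TPM or more. Across the 78 members, TPM and length had a Spearman rho of -0.42, and -0.45 with the second quantification, while the value over 13137 nuclear protein-coding genes was 0.023. The points share libraries and length enters the TPM, so the coefficient is a description.

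5 mitoribosomal proteins without an Mrp name were at similar levels, with a median of 29.97 TPM. Dap3, the GTP-binding protein of the small subunit, was at 47.66 and 44.98 TPM. Ptcd3 was at 31.9 and 28.0 TPM, Chchd1 at 23.1 and 20.2 TPM and Aurkaip1 at 42.5 and 47.2 TPM. Gadd45gip1, in the large subunit, was lower, at 11.0 and 12.3 TPM. The genes that build and serve the ribosome were lower than its proteins. The medians were 8.63 TPM for 25 assembly factors, 10.6 TPM for 15 translation factors and 10.6 TPM for 19 mitochondrial aminoacyl-tRNA synthetases. Cytosolic ribosomal protein genes (82 listed) had a median of 183 TPM. The mitochondrially encoded mRNAs that the ribosome translates had a median of 1561 TPM over 13 genes.

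**Figure D2:**
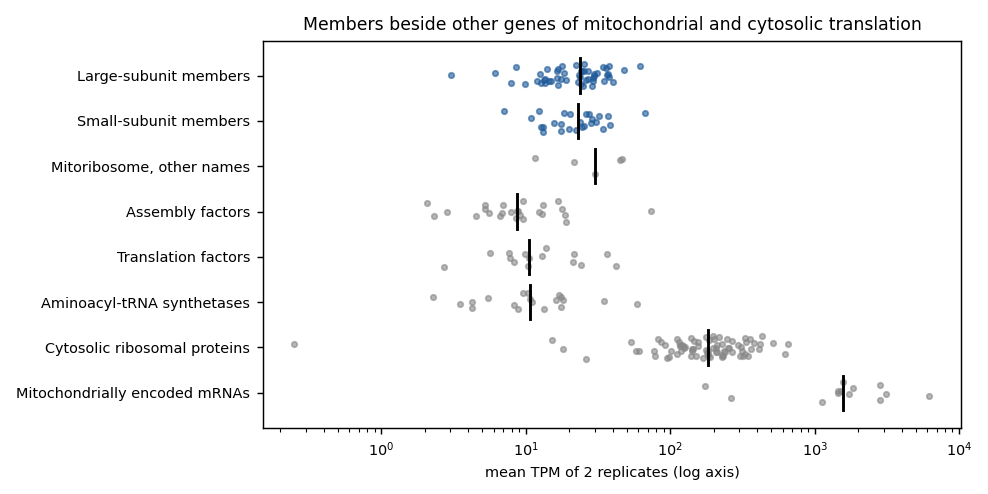
Mean TPM of 2 replicates on a log axis for the members by subunit (blue) and for other lists of mitochondrial and cytosolic translation (grey); each point is a gene, black bars are medians, and genes under 0.1 TPM are not drawn. The assembly factors, translation factors and synthetases have medians of 8.63, 10.6 and 10.6 TPM, under those of both subunits.

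The ribosomal RNAs stood far above the proteins of their subunits. The small-subunit rRNA, mt-Rnr1, was at 28755 TPM in replicate 1 and 29462 TPM in replicate 2, which is 1325 and 1294 times the median small-subunit protein. The large-subunit rRNA, mt-Rnr2, was at 41180 and 43804 TPM, or 1745 and 1895 times the median large-subunit protein. The spike-in set named in the labels belongs to a protocol that reduces ribosomal RNA, so these multiples describe the libraries as sequenced.

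The replicates gave nearly the same order of members. The coefficient over the 78 members was 0.98 (Pearson, log2 TPM) and 0.97 (Spearman). The TPM of 51 members lay within 10% of each other, and the median coefficient of variation of the 2 values was 4.58%. Counts were then compared as the log2 ratio of replicate 2 over replicate 1 after TMM scaling, with an exact 95% interval that covers counting error only. The median ratio of the members was 0.13 and 67 of 78 were positive. Nuclear protein-coding genes had a median of 0.05. Positive ratios were also found in 7720 of 12499 such genes whose average level reached 1 TPM and whose counts allowed a call. 17 members were higher in replicate 2 (21.8%) and 1 was lower (1.28%). The background was 25.8% higher and 16.5% lower over 13912 annotated genes, and 26.9% higher and 13.7% lower over 12618 nuclear protein-coding genes. A call depends on depth, and in the 7748 nuclear protein-coding genes in the members' count range the shares were 18.5% and 11.3%. The share of members called higher lay between these backgrounds, under that of all genes and over that of genes with like counts. The share called lower was under each of these backgrounds. Among the comparison lists, cytosolic ribosomal protein genes had a median ratio of 0.24, with 72 of 79 called higher and 0 lower. The median ratios of translation factors, assembly factors and synthetases were 0.05, 0.0025 and -0.011.

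The spread among members was small. All 78 ratios lay within 0.5 of 0 on the log2 scale, and their SD was 0.138, against 0.324 in nuclear protein-coding genes of the same count range. The robust SD was 0.126 and 0.193. The median half-width of the members' intervals was 0.213, so most single ratios were not separable from 0 at this depth.

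Of the 17 members called higher, 13 were among the 51 large-subunit genes (25.5%) and 3 among the 26 small-subunit genes (11.5%); the median ratios were 0.12 and 0.15, and the difference between subunits was not tested. Mrpl44, a protein of the large subunit with an RNase III-like fold, had 220 and 382 counts in the replicates, a ratio of 0.45 (0.21 to 0.70) on the log2 scale. Mrpl55 had 166 and 285 counts, a ratio of 0.43 (0.16 to 0.72). Mrpl46 had 195 and 331 counts, a ratio of 0.42 (0.16 to 0.68). Mrps11, its head-to-head neighbour, had a ratio of 0.15 whose interval of -0.13 to 0.42 includes 0. Mrpl27 and Mrpl20 each had a ratio of 0.37 and Mrpl41 one of 0.34. The small-subunit genes called higher were Mrps21 (0.26), Mrps2 (0.22) and Mrps34 (0.19), and Mrps36 (0.28) completed the list with Mrps30 (0.25) and Mrpl11 (0.23) of the large subunit among the others. Mrps10 was the single member called lower, with 346 and 354 counts and a ratio of -0.31 (-0.53 to -0.09). 15 of the 17 were also called higher with the counts of the second quantification, where Mrps10 was again lower, at -0.38, and the calls of Mrps21 (0.23) and Mrps34 (0.15) were lost. With DESeq2 size factors 15 members were called higher, and with total counts 12. The share over all genes is not given for either scaling. Among the named members, Mrps34 lost its call in both (0.19 and 0.14). Mrps36 (0.23) and Mrpl11 (0.19) lost theirs with total counts. Of the genes without an Mrp name, Aurkaip1 (0.24) and Gadd45gip1 (0.30) were called higher and the others were not called. With spike-in scaling both calls were lost, at 0.12 and 0.17, and in the second quantification Dap3 was called higher, at 0.14.

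**Figure D3:**
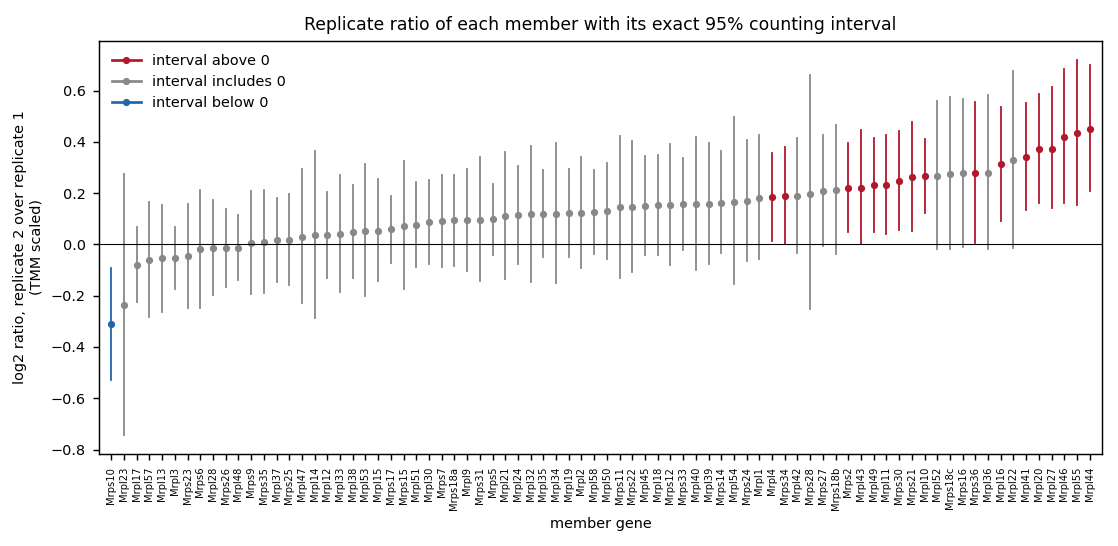
Log2 ratio of replicate 2 over replicate 1 for each of the 78 members, TMM scaled, with exact 95% counting intervals as bars. Red marks the 17 members whose interval lies above 0 and blue the single member, Mrps10, whose interval lies below it.

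The number called depended on the scaling. With the ERCC spike-ins the median of nuclear protein-coding genes shifted from 0.05 to -0.07, and the members' median from 0.13 to 0.00. Then 6 members were higher (Mrpl44, Mrpl55, Mrpl46, Mrpl27, Mrpl20 and Mrpl41) and 4 were lower (Mrps10, Mrpl17, Mrpl3 and Mrpl48), beside 7.07% and 32.2% of nuclear protein-coding genes. Mrpl17 was lower by counts, at a log2 ratio of -0.20, while its TPM was higher in replicate 2. In TPM the members' median log2 ratio was 0.03, with 43 members higher and 34 lower in replicate 2. The median log2 TPM ratio of nuclear protein-coding genes was -0.09. Members called higher under TMM scaling were therefore higher relative to other genes, and only 6 of them also relative to the spike-ins.

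Cell type markers were set beside the tissue label. 3 pan-neuronal markers were at 140 to 1434 TPM and 3 excitatory markers at 25.6 to 1112 TPM, while 3 cerebellar markers were at 0.02 to 0.21 TPM and 3 of liver or muscle at 0 to 0.175 TPM. Striatal markers were also present, at 6.385 to 99.8 TPM. All 5 were called higher in replicate 2, with a median log2 ratio of 1.28. Their summed level was 126 TPM in replicate 1 and 279 TPM in replicate 2. All 3 inhibitory and all 3 microglial markers were also called higher, with median log2 ratios of 0.23 and 0.22. Of 3 markers each, 2 oligodendrocyte and 2 endothelial markers were called higher, with medians of 0.20 and 0.21, and 1 endothelial marker was called lower. Astrocytes and excitatory neurons each had 1 marker in each direction. Of the pan-neuronal markers, 2 were called higher and 0 lower. Over nuclear protein-coding genes 26.9% were called higher and 13.7% lower. The microglial sum was 54.6 and 58.4 TPM, while the inhibitory sum was 256 and 247 TPM. The part of these cell types in the members' ratios was not tested. Replicate 1 held 22827984 counts on annotated genes and replicate 2 29897486.

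The 2 deposited quantifications were compared member by member. The second transcript table, summed per gene, gave higher TPM at the median, by a log2 of 0.65 over 12825 nuclear protein-coding genes, and differences were read relative to that median. The members' median difference was 0.05, and 1 member, Mrpl23, was beyond 1 on the log2 scale, against 1.21% of nuclear protein-coding genes. Mrpl27 (1.00), Mrpl17 (-0.90), Mrpl35 (0.84), Mrpl3 (0.72) and Mrpl22 (0.71) followed. Mrpl17 was at 36.4 and 43.5 TPM in the gene table and 32.7 and 34.7 TPM in the second. The tables differed in which of its transcripts they used: Mrpl17-204, a transcript of 459 bases, held 17.2 and 23.7 TPM in the first and was at or near 0 in the second. Over the 78 members the Pearson coefficient of log2 TPM between the tables was 0.83 in replicate 1 and 0.77 in replicate 2, and 0.92 and 0.91 without Mrpl23.

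Mrpl23 (chr7:142532686-142540747, + strand), the counterpart of bacterial protein L23 at the exit of the peptide tunnel, was at 3.55 and 2.53 TPM in the gene table and at 42.6 and 49.6 TPM in the second. Its processed pseudogene Mrpl23-ps1 (chr2:74591330-74591909, - strand) showed the reverse pattern. Mrpl23-ps1 was at 21.9 and 26.2 TPM, on 157 and 261 counts, in the gene table, and was listed at 0 in the second. A protein-coding transcript of Mrpl23 of 692 bases and the pseudogene aligned over 540 bases with 0 mismatches, including all 438 coding bases. The first 90 coding bases of each are shown, in lower case throughout because no base differs, and a read from either cannot be placed by its sequence there.
Mrpl23: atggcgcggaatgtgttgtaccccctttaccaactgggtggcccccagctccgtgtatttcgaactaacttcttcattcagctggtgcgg
Mrpl23-ps1: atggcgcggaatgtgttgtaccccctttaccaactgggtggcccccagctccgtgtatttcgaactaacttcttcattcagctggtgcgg

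Summed with the pseudogene, Mrpl23 was at 25.5 and 28.8 TPM, near the members' median, and the sum differed between the quantifications by 0.12. The sum had 222 and 331 counts, a log2 ratio of 0.23 (-0.02 to 0.48), where Mrpl23 alone had 65 and 70 counts and a ratio of -0.24 (-0.74 to 0.27). The level of Mrpl23 is therefore uncertain in either table. The deposited posterior mean of its TPM in the gene table was 8.08 and 5.27, above its TPM of 3.55 and 2.53.

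**Figure D4:**
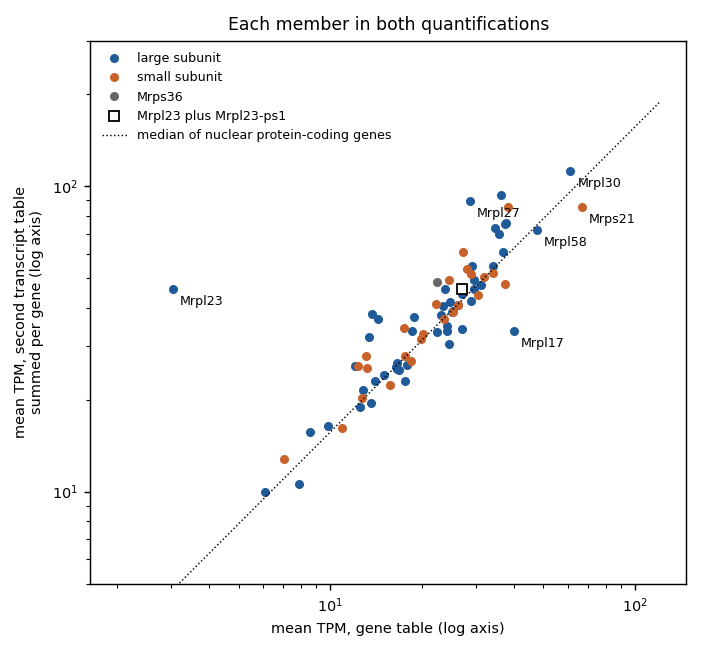
Mean TPM of each member in the gene table against its mean TPM in the second transcript table summed per gene, both on log axes; the dotted line is the median of nuclear protein-coding genes. Mrpl23, at 3.04 against 46.1 TPM, is the member far from the line, and the square shows it summed with Mrpl23-ps1 at 27.1 against 46.1 TPM.

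Other members had smaller doubts of the same kind. The read length was taken as 100 bases from the difference of 99 between length and effective length in the gene table's source. In the second table that difference was 346.1 and 344.06 bases in replicates 1 and 2. Its part in the differences between the tables was not tested. Of 78 members, 22 shared a stretch of 100 bases on the same strand with another annotated gene, 16 of them with a gene elsewhere in the genome, and 40 shared none on either strand. Examples of pseudogenes whose level differed between the tables follow, chosen after their values were seen. Mrps33 had 436 and 617 counts, and its processed pseudogene Gm5776 had 13 and 83 counts in the gene table and was listed at 0 in the second. Mrps33 alone had a log2 ratio of 0.16 whose interval of -0.02 to 0.34 includes 0, and the sum of both had a ratio of 0.30 (0.12 to 0.47). Mrpl48 and Mrpl48-ps aligned over 617 bases with 12 mismatches, and the pseudogene had 60 and 58 counts, beside 901 and 1133 for Mrpl48. Mrps5 shared 284 such stretches with Gm13328, which had 40 counts in each replicate and was listed at 0 in the second table. 42 members overlapped another annotated gene, 36 of them one on the opposite strand. No label or file header states whether counting used strand, so the levels of those 42 are less certain than the others. Mrpl53 shared 75.6% and Mrps25 66.4% of their stretches with an overlapping gene, the latter on the opposite strand.

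Isoform use was stable between replicates. Of 74 members with 2 or more annotated transcripts and 5 TPM or more in both replicates, 72 had the same leading transcript in both (97.3%, against 89.5% of 9375 nuclear protein-coding genes). The exceptions were Mrpl19 and Mrps10. The leading transcript held a median of 77.9% of a member's TPM, against 61.8%. Between quantifications the leading transcript was the same for 57 of 74 members (77.0%, against 76.1%), and for 53 it was the same in both replicates and both quantifications.

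Transcripts annotated as other than protein-coding held 27.5% and 24.6% of the members' TPM in replicates 1 and 2, against 18.1% and 15.2% over nuclear protein-coding genes. In the second table the shares were 29.6% and 28.1%, against 20.97% and 18.4%. Retained-intron transcripts, which keep an intron, held 14.3% and 11.6%. Processed transcripts, which have no annotated open reading frame, held 7.63% and 7.32%. Transcripts predicted to be removed by nonsense-mediated decay held 5.60% and 5.70%. The median member was ordinary, with 14.7% in such transcripts beside 13.8% in nuclear protein-coding genes, and 16 members (21.6%) had 50% or more, against 10.8% of nuclear protein-coding genes. A transcript of these classes was the leading one in 15 members (20.3%, against 7.49%). 13 of the 16 had 50% or more in the second table too.

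In Mrps26, non-coding classes held 89.9% and 90.4% of the TPM, all of it in a retained-intron transcript of 1057 bases, and 90.2% and 91.5% in the second table. The protein-coding Mrps26-202 is 4278 bases long and was at 3.39 and 2.94 TPM. Mrps16, one of the first mitoribosomal genes tied to human disease, had 85.4% and 91.8% in Mrps16-202, a processed transcript. Mrps25 had 87.4% and 86.9% in 2 retained-intron transcripts. Mrpl32 had 73.3% and 70.3% in a transcript annotated for nonsense-mediated decay. Mrpl15 had 88.5% and 92.7% in non-coding classes, led by the processed transcript Mrpl15-202.

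Some of these assignments did not hold between tables. Mrps11 had 100% and 79.7% in non-coding classes in the first transcript table, but 29.2% and 21.5% in the second, where a protein-coding transcript led. Mrps14 had 78.4% and 84.5% in a transcript annotated for nonsense-mediated decay, while the second table listed that transcript at 0 and gave Mrps14-202, protein-coding, 92.2% of the mean. Values for single transcripts of these genes therefore depend on the quantifier.

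**Figure D5:**
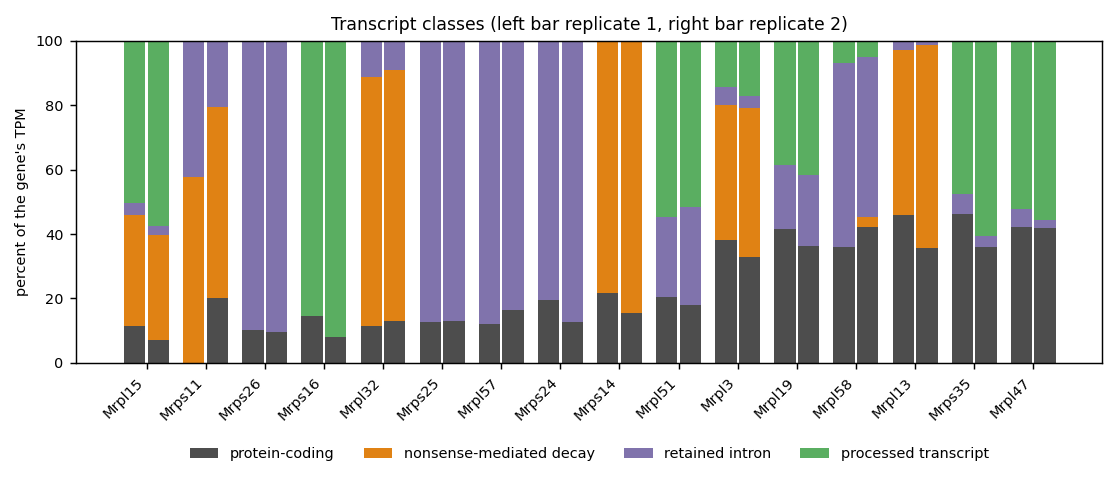
Percent of each gene's TPM by annotated transcript class in the 16 members with 50% or more outside protein-coding transcripts, replicate 1 on the left and replicate 2 on the right of each pair. Retained-intron transcripts fill most of Mrps26, Mrps25, Mrpl57 and Mrps24, and nonsense-mediated decay transcripts most of Mrps14 and Mrpl32.

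A few members had no dominant transcript. Mrpl58 had 10 annotated transcripts, and Mrpl58-202 led with 24.3% and 30.4%. Mrps5 led with Mrps5-207 at 28.9% and 43.2%, and the second table put 54.1% of the mean in Mrps5-206, a retained-intron transcript. Mrpl3 led with Mrpl3-204, a nonsense-mediated decay transcript, at 34.4% and 39.3%. Mrpl24 led with Mrpl24-202 at 35.8% and 39.3%, and Mrps23 with Mrps23-203 at 34.4% and 42.9%, both protein-coding. Mrps10 changed its leading transcript between the replicates, from Mrps10-204 at 38.7% to Mrps10-203 at 42.6%, both protein-coding.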

How the data were processed

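Total RNA-seq libraries of 2 replicates of 1 group were read from the deposited gene table, its transcript table and a second transcript table. Per the deposited lists, the build was mm10 and the annotation GENCODE M21; for aligner, quantifier versions and strand setting, the sources used here give nothing. The deposited expected counts and estimated counts are reads divided among genes or transcripts, and were rounded to whole numbers. The deposited TPM values are scaled to a fixed total per library over all listed features; their deposited interval bounds are on the same scale. The deposited percent column gives each transcript's share of its gene. The replicates were scaled by TMM (edgeR 4.0.16, R 4.3.3) or, as alternatives, DESeq2 1.42.0 size factors, spike-ins or totals. Calls were made for genes averaging at least 50 counts, where the exact Clopper-Pearson 95% interval of the log2 ratio excluded 0. The interval used the rounded counts, and 0.5 was added to each count only for the ratio itself. The procedure was tested on simulated counts that held counting error alone, so that test does not cover variation between libraries. A single group of 2 allows no p-value. Sequences were compared with Biopython 1.88 on the GENCODE M21 transcripts. The intervals cover counting error only.

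Named members were the 6 highest and 6 lowest per subunit, up to 6 per direction with the largest replicate ratio, the 6 with the largest difference between quantifications, the 6 with the lowest leading share and the 6 with the highest non-coding share, and a short list of structural interest. Neighbours, paralogs, pseudogene pairs and the printed promoters were chosen after their values were seen. Members and lists were chosen with earlier results of these data known.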

Additional observations from a re-analysis of the deposited data

How the results depend on the processing

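The median level of the members, 23.5 TPM, became 37.5 TPM in the second table, 51.7 TPM when TPM was rescaled to nuclear protein-coding genes and 24.6 TPM without the 42 members that overlap another gene, and it was 22.95 to 23.45 TPM in single replicates. The large-to-small ratio of 1.04 became 0.983 in the second table and was 1.02 to 1.09 in single replicates. The 17 members higher and 1 lower became 6 and 4 with spike-in scaling and 26 and 2 in the second table. With spike-ins, 7.07% of nuclear protein-coding genes were called higher and 32.2% lower. In the second table these shares were 35.0% and 13.1%, beside 33.3% and 2.56% of the members. The count higher became 8 with a 99% interval, 9 without overlapping members and 8, with 0 lower, among the 40 members that share no stretch of 100 bases; the lists of 36 and 40 are smaller by construction, and both were added after seeing the data, as was the sum of Mrpl23 and Mrpl23-ps1. The median log2 ratio of 0.13 became 0.0016 with spike-ins, 0.0816 with total counts, 0.16 in the second table, 0.16 without overlapping members and 0.0329 as a TPM ratio. The median of nuclear protein-coding genes moved as well. It was 0.054 under TMM, -0.072 with spike-ins, 0.0080 with total counts, 0.082 in the second table and -0.092 as a TPM ratio. The non-coding share of 26.1% became 28.8% in the second table and was 24.6% to 27.5% in single replicates. The same leading transcript in both tables was found for 55 to 56 members in single replicates. Counts with DESeq2 size factors or total counts were within 1.5 times of these. The share called over all genes is not given for the 99% interval, DESeq2 size factors or total counts. The cause of these changes was not tested. No paired analysis was possible because there is a single group. The lowest member counts, 65 and 70 for Mrpl23, limit its ratio most.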
